A study of Mus musculus with 16 samples.

Results

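Lung RNA was compared between pregnant and non-pregnant mice that had received only phosphate-buffered saline (PBS), the vehicle without particles. The 8 arrays of the comparison are part of the 16 in the study and were chosen by their labels alone: 4 pregnant and 4 non-pregnant samples. All 8 came from female mice of the inbred BALB/c strain, which were given PBS into the nose under light halothane and whose whole-lung RNA was taken 19 hours later. The pregnant mice were at gestation day 14. Their age is not stated in the labels. The other 8 arrays held the same 2 states after 50 ug of titanium dioxide (TiO2), a mineral dust, and served here for a second look at each pregnancy difference. The series asked whether pregnancy alters the lung response to such particles, so the PBS arrays measure the difference that was there without them. Replicate numbers only name the arrays. The labels list separate samples but do not state that each is 1 mouse, so p-values measure the spread between samples. In the gene tests the spread of each gene was estimated within the 4 groups of all 16 arrays, not from the PBS arrays alone.

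The lung holds a large marginated pool of neutrophils, the phagocytes that answer bacterial infection, and it is a site where megakaryocytes release platelets. Blood neutrophil numbers are known to rise in pregnancy, and plasma volume, cardiac output and ventilation also rise. RNA from whole lung carries the transcripts of resident epithelium, vessels and connective tissue together with those of blood cells held in the vessels. In such bulk RNA a larger number of cells of a type and more RNA per cell cannot be told apart.

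Values are log2(intensity + 16) after quantile normalization, so a difference of 1 is a 2-fold change except for weak signals, where it is understated. Markers of alveolar type 2 cells, which make surfactant, averaged 11.88 to 12.01 over the 8 arrays, and markers of the flat alveolar type 1 cells averaged 11.29 to 11.41, so both cell types of the labelled organ were measured on each array. Non-pregnant replicate 2 carries conflicting labels. Its source text calls the mouse pregnant, while its gestation label and the list of samples place it among 4 non-pregnant ones. It was kept as non-pregnant, and results are given with it left out and with it counted as pregnant. Non-pregnant replicates 3 and 4 carried transcripts of the thymus: the mean of 10 thymocyte markers was 8.85 and 8.94 on these arrays and 7.36 to 7.75 on the other 6. The thymic epithelial protease Prss16 was at 8.98 and 9.72 there and at 5.20 to 6.32 elsewhere. Squamous epithelial markers were lowest on non-pregnant replicate 2 (mean 8.71 against 9.38 to 9.97).

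Limma called 129 of 12369 genes (1.04%) at a Benjamini-Hochberg adjusted p under 0.05, 100 higher (0.808%) and 29 lower (0.234%) in pregnant mice. Genes of neutrophils and platelets led the rises, together with myeloid lectin receptors, interleukin 1 beta, the nuclear receptor Nr4a1 and the heavy chain of immunoglobulin A. The falls were smaller and included the chemokine Cxcl14, genes of elastic and fibrillar matrix, and genes of DNA replication. The median rise of the called genes was 0.74 log2, between 0.34 and 1.92, and 22 genes rose by at least 1 log2. The median change of the genes called lower was −0.52, between −0.98 and −0.36. For 127 of the 129 genes the 4 pregnant and 4 non-pregnant values did not overlap, which was so for 5.76% of all genes tested. The median change of all genes was 0.007. Another 14 probe sets without a single gene symbol were also called, 12 of them higher.

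**Figure D1:**
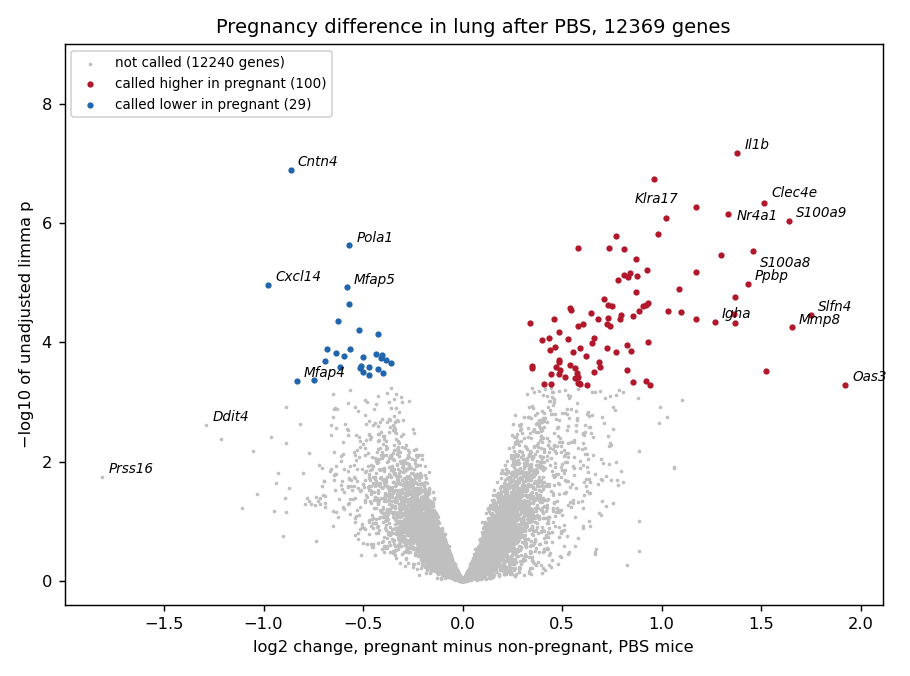
Difference between pregnant and non-pregnant PBS mice for 12369 genes (x axis, log2) against −log10 of the unadjusted limma p (y axis). Red points are the 100 genes called higher, blue points the 29 called lower, and the called rises reach further (1.92) than the called falls (−0.98), while Prss16 and Ddit4 lie far left without a call.

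The number of calls depended on single arrays, on the scaling and on the arrays that gave the spread. A fit of the 8 PBS arrays alone gave 49 calls, 45 higher and 4 lower. Values as deposited, without scaling between arrays, gave 38 calls, all 38 higher, with the median change of all genes at 0.16. Across single arrays the number was 72 without pregnant replicate 1, 78 without pregnant replicate 2 and 217 without non-pregnant replicate 3, and lay between 93 and 118 without each of the other 5. Without the array of conflicting labels 116 genes were called, and in 90 of them that array lay nearer to the mean of the other non-pregnant arrays than to the pregnant mean. Over all genes that array correlated at 0.967 to 0.973 with the other non-pregnant arrays and at 0.969 to 0.977 with the pregnant ones. These ranges overlap, so the correlations did not place that array in either group. Counting it as pregnant instead left 7 calls, of which 1 was among the 129, although all 129 kept their sign. Leaving out both arrays with thymus transcripts gave 245 calls, which held 90 of the 129. Of 62 called genes whose values are given here, 35 were called in every one of 8 fits that each left out 1 PBS array.

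Neutrophil genes were higher in pregnant mice. The members of this and every other gene list were chosen with earlier results of these data known. List counts and medians are therefore description and not a test of a cell type or pathway. Lists also share genes: Il1b, Clec4d, Clec4e, Trem1 and Lrg1 are counted here and again in lists below. Of 36 listed genes 30 had a probe set and 26 passed the filter on low signals. Among these 26, 15 rose (all genes: 0.808% called higher) and none fell. In 18 the groups did not overlap (all genes: 3.46% higher without overlap), and the list median was 0.75. S100a8 and S100a9, which pair to form calprotectin, the main calcium-binding protein of the neutrophil cytosol, were among the largest. S100a8 was at 12.65, 12.55, 12.24 and 12.02 in the pregnant and at 10.70, 11.19, 11.19 and 10.54 in the non-pregnant arrays. S100a9 was at 12.44, 12.44, 11.99 and 11.75 against 10.38, 10.73, 10.85 and 10.11. Neither gene overlapped between the groups, and pregnant replicates 3 and 4 were the lower pair in both. S100a8 was 2.75-fold higher (1.46 ± 0.21 log2, SE, adjusted p = 0.00241) and S100a9 3.11-fold higher (1.64 ± 0.21, adjusted p = 0.00143).

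Some granule and surface genes of neutrophils moved alongside. The granule genes Ngp, Camp, Ltf and Lcn2 lay higher, at 0.58 to 1.06, without a call (limma adjusted p = 0.181 to 0.414). Mpo, Elane and Prtn3, also granule genes, stayed below the filter, at −0.51, −0.31 and −0.07. The granule collagenase Mmp8 was at 8.44, 8.87, 7.81 and 7.36 in pregnant mice and at 6.31, 7.06, 6.24 and 6.25 in non-pregnant ones. The lowest pregnant value lay close above the non-pregnant replicate whose labels conflict. Mmp8 rose by 1.65 ± 0.30 (adjusted p = 0.0114), and without pregnant replicate 1 it was not called (adjusted p = 0.0521). Cd177, a surface protein of mature neutrophils, was at 7.91, 8.07, 7.40 and 8.15 against 6.84, 6.62, 6.60 and 6.00 (1.37 ± 0.25, adjusted p = 0.0104). Csf3r, the receptor for granulocyte colony-stimulating factor, was at 9.60, 9.44, 9.00 and 8.98 against 7.88, 7.89, 8.43 and 8.13 (1.17 ± 0.18, adjusted p = 0.00421). Both were free of overlap and stayed called without any 1 PBS array. Stfa2l1, a stefin of the cystatin family of protease inhibitors, rose by 1.10 ± 0.19 (adjusted p = 0.00913). It has near-identical copies in the genome, so its probe set may report several of them.

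The neutrophil mean of 26 genes was 8.88, 8.80, 8.60 and 8.51 in the pregnant arrays and 7.80, 7.91, 7.94 and 7.72 in the non-pregnant arrays. All pregnant arrays were higher than all non-pregnant ones. Without non-pregnant replicate 2 the list had 13 calls and a median of 0.78. Without the thymus-bearing arrays it had 11 calls and a median of 0.82. With the conflicting array counted as pregnant none of the members was called, and the median was 0.69.

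**Figure D2:**
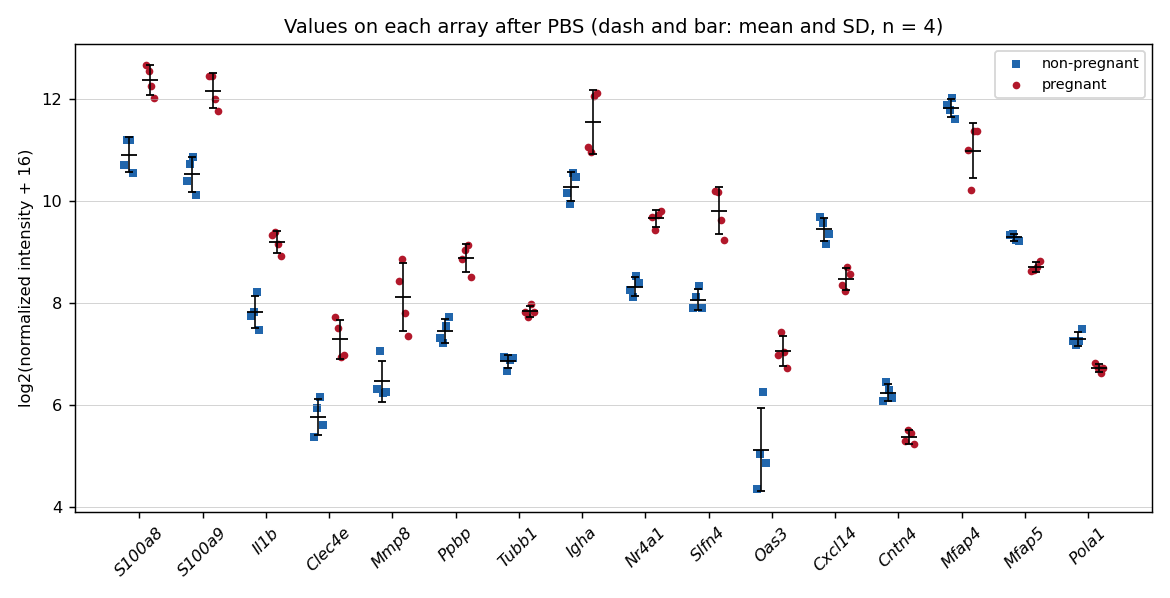
Values on each PBS array for 16 genes (y axis, log2 of normalized intensity + 16), with non-pregnant arrays as blue squares, pregnant arrays as red circles, and dash and bar for mean and SD (n = 4). No gene overlaps between the groups; S100a8 sits at 12.02 to 12.65 in pregnant mice and Oas3 spreads from 4.35 to 6.26 in non-pregnant mice.

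Promoter windows of the called genes were searched for short motifs, and those of S100a8, the lectin receptor Clec4e, the stefin Stfa2l1 and Klra17, a lectin-like receptor of a multigene family, are shown because each holds 2 matches to the core of the Ets and PU.1 element. PU.1 is a transcription factor needed for neutrophils and macrophages to form. The windows are the 250 bases before the gene start in RefSeq's GRCm38.p6 annotation, written 5′ to 3′ on the gene's own strand, and capitals mark GAGGAA or its reverse complement TTCCTC.
S100a8 (chr3:90668821-90669070, plus strand): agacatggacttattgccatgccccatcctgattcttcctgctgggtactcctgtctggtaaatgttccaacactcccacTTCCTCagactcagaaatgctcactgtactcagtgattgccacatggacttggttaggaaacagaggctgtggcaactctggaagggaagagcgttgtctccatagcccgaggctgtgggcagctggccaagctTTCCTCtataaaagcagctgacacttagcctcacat
Clec4e (chr6:123289872-123290121, minus strand): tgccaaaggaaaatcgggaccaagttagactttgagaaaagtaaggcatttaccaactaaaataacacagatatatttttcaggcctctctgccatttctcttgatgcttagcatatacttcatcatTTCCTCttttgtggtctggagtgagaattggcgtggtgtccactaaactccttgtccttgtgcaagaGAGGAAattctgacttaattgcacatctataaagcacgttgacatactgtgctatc
Stfa2l1 (chr16:36156561-36156810, plus strand): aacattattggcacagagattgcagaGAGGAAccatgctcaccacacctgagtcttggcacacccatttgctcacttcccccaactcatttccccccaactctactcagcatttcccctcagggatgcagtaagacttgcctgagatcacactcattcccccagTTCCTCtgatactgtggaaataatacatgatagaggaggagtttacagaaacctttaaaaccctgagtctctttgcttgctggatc
Klra17 (chr6:129876673-129876922, minus strand): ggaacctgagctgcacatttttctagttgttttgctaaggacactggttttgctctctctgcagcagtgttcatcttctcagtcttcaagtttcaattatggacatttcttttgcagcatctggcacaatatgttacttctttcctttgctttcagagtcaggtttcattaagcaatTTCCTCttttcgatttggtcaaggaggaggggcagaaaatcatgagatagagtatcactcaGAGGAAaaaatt

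Of the 20 largest rises, 18 had such a window, 10 held at least 1 match before the start and these 4 held 2. Over windows that also take in 50 bases after the start, GAGGAA on either strand was found in 40 of 82 genes called higher (48.8%). It was found in 5 of 23 genes called lower (21.7%) and in 3042 of all 9963 tested genes with a window (30.5%). The GATA element AGATAA was in 17.1%, 8.7% and 7.85% of the same sets, and the STAT element TTCNNNGAA in 15.9%, 13% and 8.21%. ACANNNTGT, the core that glucocorticoid and progesterone receptors share, was in 13.4%, 8.7% and 5.17%. The E-box CACGTG was in 4.88%, 13% and 11.4%, and the oestrogen element GGTCANNNTGACC was in no window of any set. Matches of different motifs can overlap, as GAGGAA and the STAT element may in a shared GAA, and a match is only a match of letters.

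Platelet and megakaryocyte genes formed the other large group of rises. Of 23 tested genes (26 listed, 24 with a probe set) 9 rose (all genes: 0.808% called higher) and none fell. In 13 the groups did not overlap (all genes: 3.46% higher without overlap), and the median was 0.63. Ppbp, the precursor of platelet basic protein and its chemokine fragments, was at 8.86, 9.03, 9.13 and 8.50 in pregnant mice and at 7.31, 7.21, 7.55 and 7.73 in non-pregnant mice. It was 2.70-fold higher (1.43 ± 0.22, adjusted p = 0.00513). Tubb1, the tubulin of the platelet's marginal band, was at 7.82, 7.72, 7.98 and 7.82 against 6.94, 6.67, 6.89 and 6.92. The pregnant values of Tubb1 lay close to each other, and the gene rose by 0.98 ± 0.13 (adjusted p = 0.00207).

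Several platelet surface receptors rose too. Itgb3, the beta chain of the fibrinogen receptor, rose by 0.86 ± 0.15, Gp5, part of the receptor for von Willebrand factor, by 0.80 ± 0.14, and Clec1b, the podoplanin receptor CLEC-2, by 0.83 ± 0.13 (adjusted p = 0.00941, 0.00941 and 0.0044). Plek, a substrate of protein kinase C in platelets and leukocytes, rose by 0.81 ± 0.12 (adjusted p = 0.00434). Nfe2, the transcription factor that platelet formation requires, was at 7.28, 7.29, 7.55 and 7.33 against 6.32, 6.13, 6.89 and 5.42 (1.17 ± 0.21, adjusted p = 0.00981). The non-pregnant values of Nfe2 were the more scattered, with replicate 4 lowest. F13a1, the clotting factor XIII subunit found in platelets and macrophages, rose by 0.77 ± 0.15 (adjusted p = 0.0228), and it was not called without pregnant replicate 1, 2 or 3 or without non-pregnant replicate 2 or 4 (adjusted p up to 0.0881).

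Other platelet genes were not called. Gp9, P2ry12 and Gp1bb lay higher, at 1.10, 0.74 and 0.63 (limma adjusted p = 0.0691, 0.0627 and 0.0989). Pf4, Selp and Vwf were at 0.37, 0.12 and 0.09 (adjusted p = 0.24, 0.761 and 0.749). Over the list 21 genes lay higher (all genes: 51.8%), and F2rl2 and Gng11 lay lower, at −0.09 and −0.20. The platelet mean was 7.85 to 8.06 on the pregnant and 7.29 to 7.47 on the non-pregnant arrays. The list had 7 calls without non-pregnant replicate 2, 6 without the thymus-bearing arrays, and none with the conflicting array counted as pregnant (median 0.45). Erythroid genes, markers of red blood cells, had a median of 0.13 over 9 tested genes, with no call. Their means were 8.89 to 9.28 on the pregnant and 8.70 to 9.01 on the non-pregnant arrays and overlapped.

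**Figure D3:**
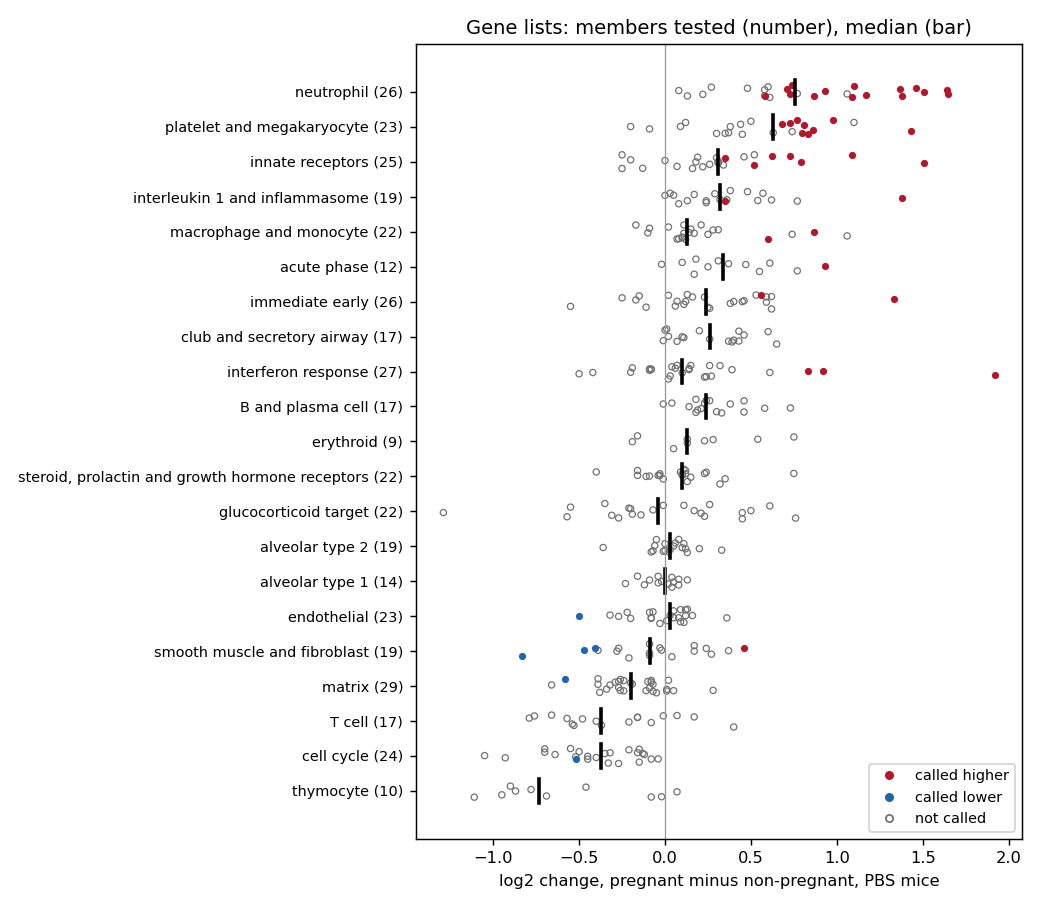
Log2 differences, pregnant minus non-pregnant after PBS, of the tested members of 21 gene lists (rows, number tested in parentheses), with called members filled in red (higher) or blue (lower), others open, and a black bar at the list median. Neutrophil (median 0.75) and platelet genes (0.63) lie to the right, thymocyte genes (−0.73) to the left without a call, and alveolar genes around 0.

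Receptors of innate recognition rose in part. Of 25 tested genes 7 rose (all genes: 0.808% called higher) and none fell, with a median of 0.31. Clec4d, Clec4e and Trem1 among them were also counted as neutrophil genes. Clec4e, known as Mincle, which binds mycobacterial glycolipid, was at 7.72, 7.51, 6.95 and 6.98 against 5.37, 5.95, 6.16 and 5.61. It was 2.86-fold higher (1.51 ± 0.18, adjusted p = 0.00133). Its partner Clec4d was at 8.33, 8.18, 7.89 and 7.60 against 6.67, 7.07, 6.94 and 6.97 (1.09 ± 0.17, adjusted p = 0.00566). Both lectins were free of overlap, and both remained called in the 8 fits that left out 1 PBS array. Fcer1g, the signalling chain that these lectins and the Fc receptors use, rose by 0.79 ± 0.14 (adjusted p = 0.00981).

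The rest of this group was less firm. Trem1, an amplifying receptor of neutrophils and monocytes, rose by 0.73 ± 0.14, and Fcgr4, an IgG receptor, by 0.62 ± 0.14 (adjusted p = 0.0208 and 0.0494). Clec7a, the beta-glucan receptor dectin-1, rose by 0.52 ± 0.11, and Myd88, the adaptor of Toll-like and interleukin 1 receptors, by 0.35 ± 0.07 (adjusted p = 0.0412 and 0.0329). These 4 genes were called in only 1 to 4 of the 8 fits without 1 PBS array, with adjusted p up to 0.163; each lost its call without pregnant replicate 1 and without non-pregnant replicate 4. Without non-pregnant replicate 2 the list had 4 calls.

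Il1b, the main inflammatory interleukin 1, rose. It was at 9.34, 9.39, 9.16 and 8.91 in pregnant and at 7.75, 7.83, 8.22 and 7.47 in non-pregnant mice, 2.60-fold higher (1.38 ± 0.14, adjusted p = 0.000762). The lowest pregnant value lay above the highest non-pregnant one, and without any 1 PBS array the adjusted p was at most 0.00571. Of 19 tested genes of the interleukin 1 and inflammasome list only Il1b, counted already above, and Myd88 rose (all genes: 0.808% called higher). In that list 18 lay higher (all genes: 51.8%), with a median of 0.32. Among cytokines and chemokines, 17 tested, Ccl9 rose (all genes: 0.808% called higher) and Cxcl14 fell (all genes: 0.234% called lower), with a median of 0.12. Ccl9 was at 9.46, 9.42, 9.42 and 9.42 against 8.83, 8.80, 8.65 and 8.72 (0.68 ± 0.12, adjusted p = 0.00981).

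Of 22 tested macrophage and monocyte genes 2 rose (all genes: 0.808% called higher) and none fell. In that list 19 lay higher (all genes: 51.8%), with a median of 0.13. Chil3, the chitinase-like protein Ym1 of alveolar macrophages and neutrophils, was at 11.49, 11.31, 11.64 and 11.43 against 10.67, 10.77, 10.19 and 10.75 (0.87 ± 0.13, adjusted p = 0.00434). Cd68, a lysosomal glycoprotein of macrophages, was at 9.13, 9.41, 9.46 and 9.22 against 8.57, 8.74, 8.78 and 8.72 (0.60 ± 0.11, adjusted p = 0.0105). Neither overlapped between groups. Wfdc17, a small secreted protein with a protease-inhibitor fold, rose by 1.30 ± 0.19 (adjusted p = 0.00262) and Ifitm6, a membrane protein of the interferon-induced family found in myeloid cells, by 1.37 ± 0.23 (adjusted p = 0.00729). Klra17 was at 7.06, 7.21, 6.86 and 7.05 against 5.77, 5.69, 6.03 and 6.00 (1.17 ± 0.14, adjusted p = 0.00133). Because Klra17 belongs to a multigene family, its probe set may also report other members. Ces1g, a carboxylesterase with close paralogs, rose by 1.36 ± 0.24 (adjusted p = 0.00927).

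Of 27 tested interferon-response genes 3 rose (all genes: 0.808% called higher), none fell and 19 lay higher, with a median of 0.10. Oas3, a 2′-5′ oligoadenylate synthetase that activates RNase L, had the largest change among the called genes, with an adjusted p close to the threshold. It was at 6.99, 7.44, 7.05 and 6.73 in pregnant and at 4.35, 5.05, 6.26 and 4.86 in non-pregnant mice (1.92 ± 0.44, adjusted p = 0.0494). The non-pregnant values spread widely and near the bottom of the scale, and Oas3 was called in 1 of the 8 fits without a PBS array, that without non-pregnant replicate 3 (adjusted p up to 0.158). Oas2 of the same family rose by 0.83 ± 0.18 and the antiviral protein Rsad2 by 0.92 ± 0.21 (adjusted p = 0.0334 and 0.0455). Each of them was called in 3 of those 8 fits. Without non-pregnant replicate 2 the list had no call.

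Slfn4, a Schlafen protein of myeloid cells that responds to interferon, was at 10.20, 10.18, 9.62 and 9.24 against 7.90, 8.12, 8.33 and 7.90. It was 3.36-fold higher (1.75 ± 0.31, adjusted p = 0.00941) and was called in all 8 fits without 1 PBS array, with the caution that Schlafen genes lie in a cluster of similar copies. Apol11b, an apolipoprotein L, was at 6.24, 6.11, 5.49 and 6.18 against 4.03, 4.11, 5.25 and 4.54 (1.52 ± 0.33, adjusted p = 0.0354). The non-pregnant values of Apol11b lay near the bottom of the scale. The lowest pregnant value of Apol11b came close to the highest non-pregnant one, and its call was kept in 1 of those 8 fits, that without pregnant replicate 3.

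Nr4a1, an orphan nuclear receptor induced within a short time by many signals, stood out among immediate-early genes. It was at 9.68, 9.42, 9.72 and 9.81 in pregnant and at 8.26, 8.11, 8.53 and 8.39 in non-pregnant mice, 2.52-fold higher (1.33 ± 0.17, adjusted p = 0.00143). The groups lay far apart for their narrow spread. Of 26 tested immediate-early genes Nr4a1 and Ier3, a stress-induced survival factor (0.56 ± 0.11, adjusted p = 0.0228), rose (all genes: 0.808% called higher). In that list 21 lay higher (all genes: 51.8%), with a median of 0.24. Ier3 was not called without pregnant replicate 1, 2 or 3 or without non-pregnant replicate 1 or 4 (adjusted p up to 0.0878).

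Among acute-phase genes 1 of 12 tested rose (all genes: 0.808% called higher), and it was also counted as a neutrophil gene. This was Lrg1, a secreted leucine-rich glycoprotein of neutrophils, liver and endothelium, at 10.15, 10.25, 10.36 and 9.96 against 9.10, 9.30, 9.56 and 9.04 (0.93 ± 0.16, adjusted p = 0.00835). The other members had values from −0.02 to 0.77. Pigr, which carries immunoglobulin A across airway epithelium, was at 0.37 ± 0.14 (adjusted p = 0.271).

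Igha, the constant region of the immunoglobulin A heavy chain, rose. It was at 11.05, 10.96, 12.05 and 12.11 in pregnant and at 10.16, 9.93, 10.54 and 10.47 in non-pregnant mice, 2.41-fold higher (1.27 ± 0.23, adjusted p = 0.0104). The pregnant arrays fell into a lower pair (replicates 1 and 2) and a higher pair (replicates 3 and 4), and both lay above all non-pregnant values. The joining chain of secreted antibody, Jchain, was at 10.04, 9.97, 9.97 and 10.32 against 8.98, 9.48, 9.51 and 9.41 (0.73 ± 0.21, adjusted p = 0.14). Mzb1, a chaperone of antibody assembly in plasma cells, was at 0.58 ± 0.13 (adjusted p = 0.0552). Neither passed, although neither overlapped between groups. Of 17 tested B and plasma cell genes 16 lay higher, none was called and the median was 0.24. Probe sets for immunoglobulin constant regions can also read related chains.

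The falls were fewer, and some were genes of the extracellular matrix. Of 29 tested matrix genes 1 fell (all genes: 0.234% called lower) and none rose. In 6 the groups lay apart on the lower side (all genes: 2.3%), and 5 lay higher, with a median of −0.20. The median was −0.06 with the values as deposited, where 11 lay higher and none was called, and −0.13 without non-pregnant replicate 2. Mfap5, a glycoprotein of elastin-associated microfibrils, was at 8.63, 8.64, 8.71 and 8.83 in pregnant and at 9.34, 9.35, 9.23 and 9.22 in non-pregnant mice. It fell (−0.58 ± 0.09, adjusted p = 0.00545), with both groups tightly held, and it was called without any 1 PBS array. Mfap4, another microfibril protein, was at 11.00, 10.21, 11.36 and 11.36 against 11.88, 11.77, 12.01 and 11.61 (−0.83 ± 0.19, adjusted p = 0.0458). Pregnant replicate 2 was the lowest, and Mfap4 was called in 3 of the 8 fits that left out 1 PBS array, those without pregnant replicate 2, 3 or 4.

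Dpt, dermatopontin, which binds collagen fibrils, was lower by −0.47 ± 0.10, and Npnt, nephronectin, an integrin ligand of basement membranes, by −0.41 ± 0.08 (adjusted p = 0.0323 and 0.0256). Abi3bp, a matrix protein that binds integrins, was at 9.93, 9.71, 9.67 and 9.64 against 10.18, 10.61, 10.24 and 10.18 (−0.57 ± 0.11, adjusted p = 0.0208). These genes had no overlap between groups, yet each lost its call in at least 3 of the 8 fits, and leaving out pregnant replicate 2 ended all of these calls. Tcf21, a transcription factor of lung fibroblasts, changed the other way, at 11.73, 11.52, 11.75 and 11.79 against 11.20, 11.31, 11.27 and 11.16 (0.46 ± 0.08, adjusted p = 0.00981). Of 19 tested smooth muscle and fibroblast genes 3 fell (all genes: 0.234% called lower) and 1 rose (all genes: 0.808% called higher). Their median was −0.09, or 0.09 with the values as deposited. Without non-pregnant replicate 2, Tcf21 was the only call of that list (Dpt, Npnt and Mfap4: adjusted p = 0.0775, 0.0635 and 0.0808).

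Cxcl14, a chemokine made by epithelium and fibroblasts, had the largest called fall. It was at 8.36, 8.23, 8.71 and 8.56 in pregnant and at 9.68, 9.57, 9.16 and 9.36 in non-pregnant mice, 1.97-fold lower (−0.98 ± 0.15, adjusted p = 0.00522). Cntn4, a contactin of the nervous system, was at 5.30, 5.52, 5.45 and 5.23 against 6.08, 6.46, 6.29 and 6.14, a weak signal that was nevertheless 1.82-fold lower (−0.86 ± 0.10, adjusted p = 0.000762). Both fell without overlap and were called in each fit without 1 PBS array. Apln, the vascular peptide apelin, was at 8.47, 8.46, 8.58 and 8.62 against 9.15, 9.14, 9.03 and 8.82 (−0.50 ± 0.10, adjusted p = 0.0255). Apln was in both the endothelial and the hypoxia and angiogenesis list, with 23 tested genes each. It was the only call in either (all genes: 0.234% called lower), and it was called in 3 of the 8 fits.

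Tfpi2, an inhibitor of plasmin and clotting proteases that placenta makes in quantity, was at 5.55, 5.64, 5.88 and 6.10 against 6.70, 6.27, 6.39 and 6.36 (−0.64 ± 0.13, adjusted p = 0.0232). Tbxa2r, the thromboxane receptor of platelets and vessels, fell by 0.60 ± 0.12 on the log2 scale (adjusted p = 0.0245), opposite to the platelet genes. Tfpi2 was called in 5 and Tbxa2r in 4 of the 8 fits without 1 PBS array. Slc38a5, an amino acid transporter, was lower by −0.63 ± 0.11 and the zinc finger gene Zfp354c by −0.57 ± 0.10 (adjusted p = 0.0104 and 0.00835), and both were called without any 1 PBS array. The remaining named falls, Ces2b, Sncb, Stk40, Nudt6, Fyn and Psmg1, were between −0.68 and −0.47, and each lost its call without at least 2 of the 8 arrays in turn. Nudt6 had another probe set of opposite sign, as did the called genes Gdpd1 and Cdk7.

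Genes of DNA replication and mitosis lay lower, but this moved with the thymus transcripts. All 24 tested cell-cycle genes were lower (−1.05 to −0.04, median −0.38), and 1 of them was called (all genes: 0.234% called lower). The list mean was 8.00 and 8.12 on non-pregnant replicates 3 and 4, and 7.05 to 7.36 on the other 6 arrays of both groups. Without those 2 arrays the median was 0.05, with 12 of 23 higher. Mcm2, part of the helicase that opens DNA for copying, was at 7.82, 7.94, 7.94 and 7.61 against 8.31, 8.21, 8.37 and 8.49 (−0.52 ± 0.10, adjusted p = 0.0122). It was at −0.43 (adjusted p = 0.0731) without the thymus-bearing arrays. Pola1, the catalytic subunit of DNA polymerase alpha, was at 6.83, 6.73, 6.62 and 6.73 against 7.26, 7.18, 7.26 and 7.50 (−0.57 ± 0.08, adjusted p = 0.00241). Pola1 stayed called without them (−0.48, adjusted p = 0.015).

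Fbxo5, an inhibitor of the anaphase-promoting complex, was at −0.69 ± 0.14 and Pmf1, a kinetochore protein, at −0.74 ± 0.17 (adjusted p = 0.0285 and 0.0455), and without the thymus-bearing arrays at −0.47 and −0.79 (adjusted p = 0.147 and 0.0774). Fbxo5 was the 1 gene of those named that was called with the conflicting array counted as pregnant (−0.79, adjusted p = 0.037). Yet Fbxo5 and Pmf1 were each called in only 2 of the 8 fits without 1 PBS array (limma adjusted p up to 0.0995 and 0.149). T-cell genes had a median of −0.37 over 17 tested genes with no call. Without the thymus-bearing arrays their median was 0.25 with 2 calls upward (all genes in that fit: 184 of 12269 called higher). The 10 tested thymocyte genes had a median of −0.73 with no call, and without those arrays 8 of 9 lay higher, with a median of 0.09. Satb1, a chromatin organizer abundant in thymocytes, was at 10.23 and 10.47 on the thymus-bearing arrays and at 8.34 to 8.64 on the other 6.

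**Figure D4:**
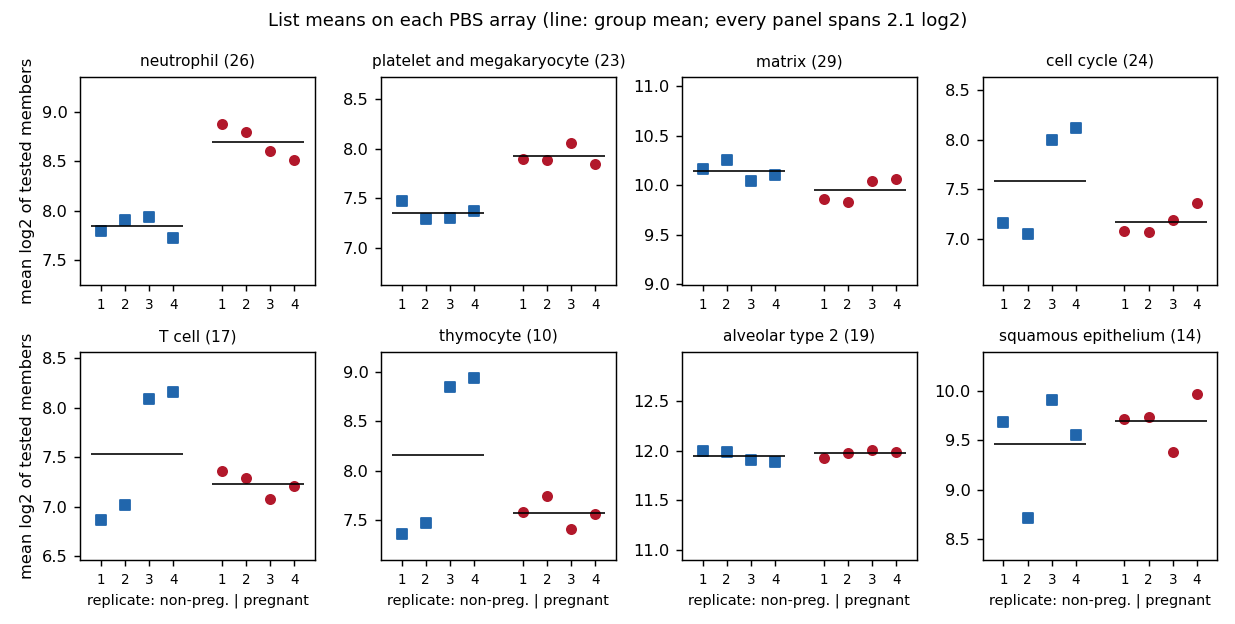
Mean log2 value of the tested members of 8 gene lists on each PBS array (y axis), non-pregnant arrays as blue squares and pregnant arrays as red circles by replicate number, with a line at each group mean. Neutrophil and platelet means separate the groups without overlap, while cell-cycle, T-cell and thymocyte means are raised on non-pregnant replicates 3 and 4 alone and the squamous mean is lowest on non-pregnant replicate 2.

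No gene of 4 lung epithelial lists was called. Medians were 0.03 over 19 alveolar type 2 genes (−0.08 after scaling to a common trimmed mean), 0.00 over 14 alveolar type 1 genes, 0.26 over 17 club and secretory airway genes and 0.14 over 20 ciliated cell genes. In the club cell list 16 lay higher, or 11 after scaling to that trimmed mean, and without the thymus-bearing arrays 13 did, with a median of 0.09. The airway mucin Muc5b was at 8.42, 8.30, 8.18 and 8.46 against 8.19, 7.62, 7.53 and 7.40 (0.65 ± 0.19, adjusted p = 0.143). Kcnk2, a potassium channel, rose (0.43 ± 0.08, adjusted p = 0.0158) and was the only called one of 17 ion transport genes (all genes: 0.808% called higher).

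Genes of hormone sensing did not pass either. Of 22 tested receptors and mediators of steroids, prolactin and growth hormone 13 lay higher, and the median was 0.10. The oestrogen receptor Esr1 was at 7.29, 7.35, 6.65 and 7.22 against 7.16, 6.59, 7.13 and 6.65 (0.24 ± 0.20, adjusted p = 0.717). The progesterone receptor Pgr was at 5.88, 5.66, 6.10 and 6.13 against 6.37, 6.36, 6.56 and 6.08 (−0.40 ± 0.16, adjusted p = 0.301). Both overlapped between the groups. The mineralocorticoid receptor Nr3c2 was at 0.32 ± 0.11 and 2 genes that cytokine and prolactin signals induce, Socs3 and Cish, at 0.75 ± 0.23 and 0.35 ± 0.13 (adjusted p = 0.241, 0.17 and 0.275). Of 22 glucocorticoid targets 10 lay higher, with a median of −0.04 (0.12 with the values as deposited). Their widest difference was that of Ddit4, an inhibitor of mTOR, at 8.68, 7.69, 9.21 and 9.30 against 10.27, 9.81, 9.19 and 10.76 (−1.29 ± 0.36, adjusted p = 0.113). Of 15 placenta and decidua genes 10 had a probe set, and only Plac8, which myeloid cells also express, passed the filter (0.70 ± 0.19, adjusted p = 0.101).

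The pregnancy difference was then measured on the 8 TiO2 arrays, which share no sample with the PBS arrays. Of the 129 genes 116 had the same sign there, against 55.8% of all genes tested: 97 of the 100 higher genes and 19 of the 29 lower ones. In a fit of the TiO2 arrays alone limma called 483 genes (3.9%), of which 44 were among the 129, 40 higher and 4 lower, with none called in the opposite direction. This was 34.1% of the PBS calls and 9.11% of the TiO2 calls. The median difference of the genes called higher after PBS was 0.48 after TiO2, and that of the genes called lower −0.14. In the fit of all 16 arrays 233 genes (1.88%) were called after TiO2.

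Il1b, Nr4a1, Clec4e, Igha and Lrg1 were also called after TiO2, at 1.15 ± 0.14, 1.26 ± 0.17, 1.07 ± 0.18, 1.67 ± 0.23 and 1.17 ± 0.16 (adjusted p = 0.00331, 0.00343, 0.00994, 0.00343 and 0.00343). The platelet genes Ppbp (1.05 ± 0.22) and Clec1b (1.09 ± 0.13) were called as well (adjusted p = 0.0288 and 0.00331). After TiO2 8 of 23 platelet genes rose (all genes: 1.37% called higher). Of 26 neutrophil genes 10 rose (all genes: 1.37% called higher), with a median of 0.51. S100a9 was called after TiO2 (0.98 ± 0.21, adjusted p = 0.0288), while S100a8 (0.63 ± 0.21, adjusted p = 0.109), Mmp8 (0.37 ± 0.30, adjusted p = 0.513), Slfn4 (0.65 ± 0.31, adjusted p = 0.247) and Oas3 (0.71 ± 0.44, adjusted p = 0.377) were not. Jchain and Mzb1, not called after PBS, were called after TiO2 (1.69 ± 0.21 and 1.00 ± 0.13, adjusted p = 0.00331 and 0.00343).

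Among the falls Abi3bp was called again in the same fit (−0.56 ± 0.11, adjusted p = 0.0255), as was Pid1, whose values are not given here. Mfap5 (−0.01 ± 0.09), Apln (0.00 ± 0.10), Cxcl14 (−0.20 ± 0.15) and Mcm2 (0.12 ± 0.10) were not, with adjusted p from 0.489 to 0.987, and Pmf1 was on the other side (0.47 ± 0.17, adjusted p = 0.14). The difference between the pregnancy effects after TiO2 and after PBS was tested directly. Limma called 0 genes (0%), the smallest adjusted p was 0.232, and 1352 genes had p under 0.05 before adjustment, so no gene was shown to differ between the exposures. Without non-pregnant PBS replicate 2 it called 2. The PBS arrays enter both that difference and the choice of the 129 genes, so lower values after TiO2 are not independent evidence of a weaker effect.

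**Figure D5:**
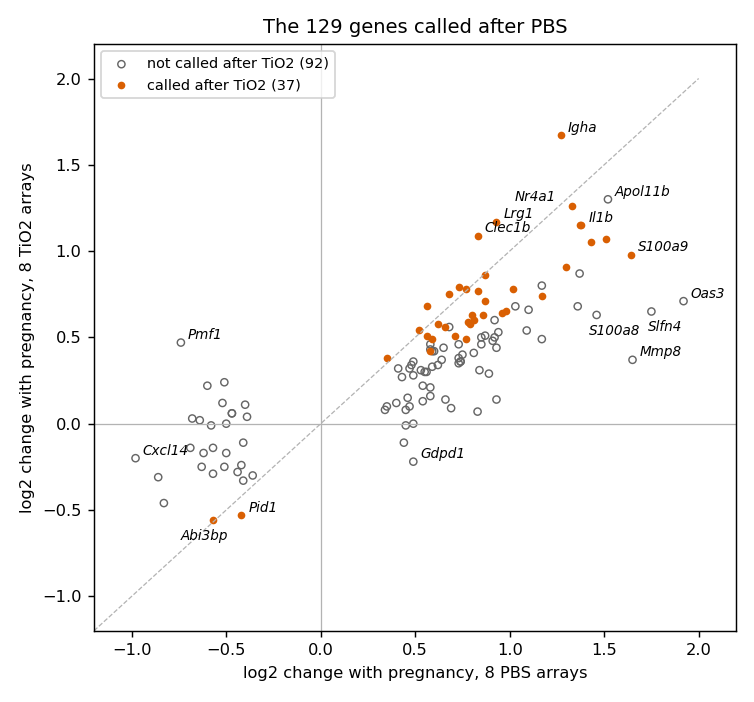
Log2 pregnancy difference of the 129 called genes on the 8 PBS arrays (x axis) and on the 8 TiO2 arrays (y axis), with the 37 genes also called after TiO2 in the fit of all 16 arrays in orange and a dashed line of equal values. Of the 129, 116 have the same sign on both, Igha and Clec1b lie above the line, and Mmp8, Slfn4 and Oas3 lie well below it.

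A technical signal also lay apart between the groups, although not at an adjusted p under 0.05. The 18S ribosomal RNA probe set, over each array's trimmed mean, was at 0.443, 0.383, 0.411 and 0.323 in the pregnant and at 1.36, 0.827, 0.953 and 0.642 in the non-pregnant arrays (0.39 ± 0.0508 and 0.945 ± 0.304, SD, n = 4). The groups did not overlap (two-sided exact permutation p = 0.0286, the smallest that 4 against 4 allows, adjusted 0.0858 over 6 such tests). Its part in the gene results was not tested. The trimmed mean brightness, the Gapdh and Actb 3′ to 5′ ratios and the median brightness gave exact p = 0.514, 0.343, 0.943 and 0.571. The labels gave RNA at 0.575 to 0.647 ug/ul in pregnant and 0.462 to 0.804 ug/ul in non-pregnant samples.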

How the data were processed

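A single table was deposited, with a linear intensity for each of 45101 probe sets of an Affymetrix whole-genome mouse array, hybridised in 1 colour. Per the submitters' processing notes the authors used GCOS, MAS5 and RMA; which of them produced the table, with its version, is not given in the sources used here. Without 64 control probe sets, values were quantile-normalized over 16 arrays, and log2(intensity + 16) was taken. Probe sets above their array's median on at least 4 arrays were kept (23995), 21248 of them with 1 gene symbol from the platform annotation, updated by a RefSeq table. The brightest on average stood for each gene, giving 12369 genes. Limma 3.58.1 in R 4.3.3 (lmFit, eBayes) fitted 4 group means with 12 residual degrees of freedom; p-values were adjusted by Benjamini-Hochberg over all genes, and a gene was called under 0.05. Errors of log2 changes are standard errors (SE). Single technical values were compared by exact permutation over 70 assignments. The 48 gene lists (1038 entries, 946 with a probe set) are described by counts and medians. The members of the lists were chosen with earlier results of these data known, as were the comparison and its tests. Genes were named by rule: the 20 largest called rises and falls without overlap, up to 6 called members per list or else up to 3 with the smallest p, and every hormone receptor, thymic epithelium and lymph node venule gene. Not all of those are printed. Alternatives covered scaling, pseudocount (1 and 64), the filter, arrays fitted, the spread estimate, weights for arrays, the choice of probe set, and arrays left out or relabelled. The procedure was tested on simulated data.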

Additional observations from a re-analysis of the deposited data

Results flagged for a closer look

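Among 76 of the named genes, 152 groups of 4 arrays were examined for an array far from the other 3, and 12 had one. Chance gives about 1 in 20 for independent groups. These groups share the same arrays, and 62 of the 76 genes were named because they were called, so that rate is no yardstick here. The array of conflicting labels, non-pregnant replicate 2, was the distant one in 5 of the 12. It was high for Mmp8 (7.06 against 6.24 to 6.31), Npnt (12.54 against 12.28 to 12.32) and Abi3bp (10.61 against 10.18 to 10.24), and low for Tubb1 (6.67 against 6.89 to 6.94) and Gp5 (5.90 against 6.33 to 6.40). In Mmp8 this lay toward the pregnant mean, and in the other 4 away from it. Pregnant replicate 3 was low for Apol11b (5.49 against 6.11 to 6.24) and high for Gp5 (7.35 against 6.94 to 6.96) and Nfe2 (7.55 against 7.28 to 7.33). Pregnant replicate 1 was at 9.46 for Ccl9, where the other 3 were at 9.42, a distance of little size. Pregnant replicate 4 was low for Sncb (5.83 against 6.26 to 6.29). Non-pregnant replicate 1 was high for Stk40 (9.10 against 8.65 to 8.70), and non-pregnant replicate 3 low for Psmg1 (8.51 against 8.69 to 8.71).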

How the results depend on the processing

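The 129 calls became 38 with values as deposited, 49 in a fit of the 8 PBS arrays alone (45 higher, 4 lower), 7 with non-pregnant replicate 2 counted as pregnant, 245 without non-pregnant replicates 3 and 4 and 219 with the thymocyte mean as a covariate. They lay between 92 and 154 under the other settings that kept all arrays, which changed the pseudocount, filter, spread estimate, array weights, probe set or trimmed-mean scaling. Leaving out 1 of the 8 PBS arrays in turn gave 72 to 217 calls after PBS. It gave 28 to 64 over the gene lists, 12 to 15 for neutrophil and 7 to 9 for platelet genes. Leaving out 1 of the 8 TiO2 arrays gave 52 to 277 calls after TiO2. Because all arrays share 1 fit, PBS arrays also moved that number, to 387 without non-pregnant PBS replicate 3. Leaving out any 1 of the 16 arrays gave 0 to 2 calls for the difference between exposures. The 233 calls after TiO2 became 21 as deposited, 141 with no filter, 483 in the TiO2 arrays alone and 1505 with array weights. With no filter the difference between exposures had 1 call. The 46 calls in the lists became 19 as deposited, 29 in the PBS arrays alone and 1 with the conflicting array counted as pregnant. Platelet calls became 5 as deposited, and neutrophil and platelet calls 0 with that array counted as pregnant. No called gene among those named changed sign in any of these settings; of the others Satb1 did, at 0.08 without non-pregnant replicates 3 and 4 (adjusted p = 0.857). The causes of the moves were not tested. No paired analysis was possible because the labels give no replicate numbers. With 4 arrays a group, small changes and weak signals are the least certain: 125 listed genes stayed below the filter.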

Other observations

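Lymph node venule, fat and muscle transcripts varied between arrays of a group. Glycam1, which high endothelial venules make, was measured at 10.63, 10.36, 9.45 and 10.70 in pregnant and at 9.38, 8.97, 10.57 and 8.91 in non-pregnant mice (0.82 ± 1.32, limma adjusted p = 0.877). The mean of 11 fat genes was 8.67 to 10.09 in pregnant arrays, with the non-pregnant arrays inside that range. The mean of 14 skeletal muscle genes was 9.87 to 10.03 in pregnant and 9.31 to 10.23 in non-pregnant arrays. Non-pregnant replicate 2 had the lowest skeletal muscle mean of the 8. Heat-shock and unfolded-protein genes had a median of −0.11 over 23 tested, with 4 higher and no call and a median of 0.03 with the values as deposited.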
